A study of Mus musculus with 12 samples.

Results

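The response to thapsigargin was measured in primary glial cultures of the mouse cortex, 60 min after the drug was added at 3 µM, against cultures given vehicle. The comparison used the 4 thapsigargin and the 4 control libraries of the 12 in the study, chosen by their labels, and every gene in the table of counts. Per the labels, the cultures were wild-type, came from CD1 pups of postnatal days 3 to 5, and were labelled as primary cultured astrocytes. Both groups had grown in serum with 10 ng/ml of epidermal growth factor, had been split at day 7 in culture and were used 3 to 7 days later in both cases. Per the series text, the 4 libraries of each group were biological replicates. The frontal cortices of 1 mouse went into a preparation, and the labels do not say which libraries came from the same mouse.

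Thapsigargin inhibits SERCA, the pump that moves calcium from the cytosol into the endoplasmic reticulum (ER). With the pump blocked, calcium leaks out of the ER, the sensor STIM1 reports the empty store and opens ORAI channels in the plasma membrane, and cytosolic calcium rises. Calcium acts through calmodulin, its kinases and the phosphatase calcineurin on transcription factors such as CREB and NFAT. These switch on immediate early genes, which need no new protein to be transcribed. ER chaperones need calcium, so the same drug leads to unfolded proteins in the ER, which are sensed by PERK, IRE1 and ATF6. PERK phosphorylates eIF2alpha, which slows general translation and favours that of ATF4. In astrocytes, which are not electrically excitable in the way neurons are, calcium released from the ER is the main form of calcium signal.

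Library totals were 37.31 to 42.25 M counts in controls and 41.72 to 42.57 M with thapsigargin. Values are CPM, counts per 1 M counts of the normalised library size, except for Xist, the Y-linked genes and sums over marker genes. Those are per 1 M raw counts and leave out the normalisation factors (0.9692 to 0.9946 in controls, 1.019 to 1.025 with thapsigargin). Replicate 4 of both groups stood apart. Xist, the RNA of the inactive X chromosome, was at 734 CPM in control 4 and 605 CPM in thapsigargin 4 and no higher than 0.331 CPM in the remaining 6, while 4 Y-linked genes summed to 199 CPM or more in those 6 and to no more than 0.213 CPM in replicate 4. Replicate 4 therefore differed in sex from replicates 1 to 3. The first principal component, with 49.3% of the variance, separated replicate 4 from the rest, and the second, with 30.5%, separated thapsigargin from control. Results are therefore also given with the replicate number as a block, which removes what the libraries of 1 number share, and without replicate 4. Astrocyte markers were abundant in every library, with a sum over 16 genes of 12100 to 14100 CPM in controls and 11100 to 13200 CPM with thapsigargin. Slc1a3, which encodes a glutamate transporter of astrocytes, was at 2685, 2759.6, 2665 and 2526 CPM in the controls and 2327, 2205, 2204 and 2104 CPM with thapsigargin. In bulk RNA, fewer cells of a type and less RNA per cell cannot be told apart.

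Of 43322 genes in the table, 16871 had enough counts to be tested. At an adjusted p under 0.05 (edgeR quasi-likelihood test, Benjamini-Hochberg), 2853 were higher with thapsigargin, which is 16.9% of the genes tested, and 2263 were lower, which is 13.4%. The increases were larger than the decreases. The median log2 fold change was 0.42 among the higher and -0.23 among the lower genes, against -0.04 over all genes tested. At least 2-fold increases numbered 168 (0.996% of the genes tested) and at least 2-fold decreases 19 (0.113%). At least 4-fold increases numbered 16, and 1 gene fell that far. The 2 groups did not overlap for 2704 of the higher and 2019 of the lower genes, where 17.7% and 14.2% of all genes tested had the thapsigargin libraries all above or all below the controls. Every thapsigargin library was above the control of the same number for 2847 of the 2853 higher genes, and below it for 2249 of the 2263 lower ones. As the genes were called from these same libraries, this follows largely from the call and adds no separate support.

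The balance of higher and lower calls depended on the fit. With the replicate block, 4267 genes were higher (25.3%) and 4910 lower (29.1%), and these held all 2853 of the higher genes and 2259 of the 2263 lower ones. Higher genes made up 55.8% of calls with TMM factors, 44.1% with upper quartile factors and 46.5% with the block. Without replicate 4 in both groups, 4604 genes were higher and 3890 lower. Those calls held 2848 of the higher and 2187 of the lower genes, and 0 genes were called in opposite directions. Leaving out control 1, 2 or 3 alone lowered the number of lower genes to 1341, 1327 and 1416, and without thapsigargin 3 it was 1529. The count of at least 2-fold decreases rose to 29 without control 4 and to 30 without thapsigargin 4.

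**Figure D1:**
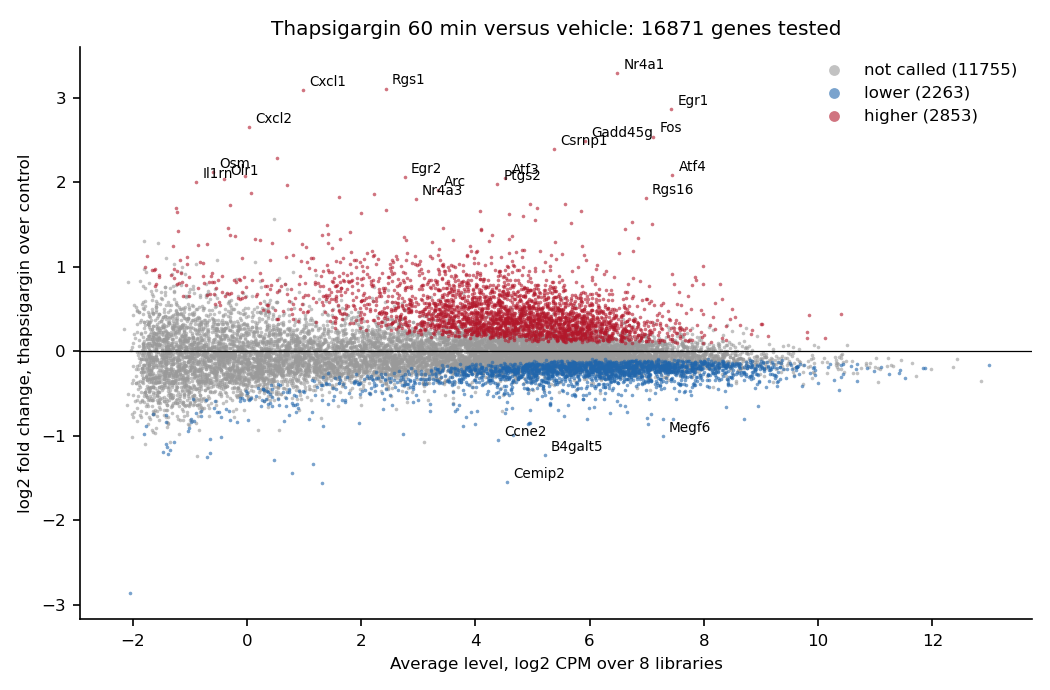
Log2 fold change of thapsigargin over control against average level (log2 CPM over 8 libraries), 1 point per gene tested, with 2853 higher genes in red, 2263 lower genes in blue and 11755 not called in grey. The red points reach a log2 fold change of 3.29 (Nr4a1), while the blue points with a mean log2 CPM of 2 or more end at -1.54 (Cemip2).

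Of the 40 gene lists, that of immediate early transcription factors had the largest median change. The lists were chosen with earlier results of these data known, so its high share of calls is in part a matter of choice. The genes named for the largest changes were chosen among genes whose groups do not overlap, so their separation is no separate result. Among 30 genes of this class, 25 were higher and 0 lower, 16 of them at least 2-fold, and their median log2 fold change was 1.24. Counts of the main fit on this list and those below compare with 16.9% higher and 13.4% lower over all genes tested. Counts with the block compare with 25.3% higher and 29.1% lower over all genes tested. Counts without replicate 4 compare with 4604 higher and 3890 lower genes in that fit. Nr4a1 (gene 15370 on GRCm39 chromosome 15, 101151783 to 101172676), an orphan nuclear receptor gene that calcium induces through CREB and MEF2, was at 17.99, 19.4, 16.3 and 12.5 CPM in control replicates 1 to 4 and 129, 146, 149 and 224 CPM in thapsigargin replicates 1 to 4. The lowest thapsigargin library was thus far above the highest control, and thapsigargin 4 was the highest of all. The log2 fold change was 3.29 ± 0.20 (SE, n = 4 per group, adjusted p = 1.47e-05). Its relative Nr4a3 (chromosome 4, 48045098 to 48086446) was at 3.28, 3.07, 3.69 and 3.62 CPM in the controls and 9.84, 10.6, 10.5 and 16.8 CPM with thapsigargin, a log2 fold change of 1.81 ± 0.18, again with thapsigargin 4 the highest.

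The zinc finger factor genes Egr1 and Egr2 and the AP-1 subunit gene Fos rose in every library. Egr1 (chromosome 18, 34994260 to 34998009) was at 45.1, 48.8, 43.7 and 29.3 CPM in the controls and 305, 348, 266 and 296 CPM with thapsigargin. Fos (chromosome 12, 85520664 to 85524048) was at 49.04, 48.5, 36.9 and 27.8 CPM in the controls and 242, 271, 234 and 198 CPM with thapsigargin. The groups were apart for both, and control 4 was the lowest library of each. Egr2 (chromosome 10, 67370334 to 67383354), a lower-level gene, was at 3.03, 3.25, 2.56 and 1.52 CPM in the controls and 11.1, 12.1, 11.8 and 8.36 CPM with thapsigargin. Log2 fold changes were 2.87 ± 0.16 for Egr1, 2.54 ± 0.18 for Fos and 2.07 ± 0.22 for Egr2 (adjusted p from 1.04e-05 to 0.000167).

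Other members of the class ranged widely in level. Klf6, a Kruppel-like factor gene, was already at 76.3, 75.4, 70.0 and 62.4 CPM in controls and reached 201, 217, 207 and 183 CPM, which on the log2 scale was a rise of 1.51 ± 0.08. The stress gene Atf3, a relative of CREB (chromosome 1, 190902493 to 190915530), was at 10.03, 9.84, 9.54 and 6.31 CPM in the controls and 35.1, 38.4, 37.99 and 36.1 CPM with thapsigargin, with control 4 below the other controls and the thapsigargin libraries close together, and rose by 2.05 ± 0.13. Ier2, an early response factor gene, rose by 1.70 ± 0.09, Csrnp1 (chromosome 9, 119800229 to 119813808), which encodes a nuclear protein induced by AXIN1, by 2.40 ± 0.13, and Nfil3, a basic leucine zipper repressor, by 1.174 ± 0.09 (adjusted p from 8.27e-06 to 2.96e-05). Early genes that do not encode transcription factors rose as well. Gadd45g (chromosome 13, 52000711 to 52002511), a growth arrest and stress gene, was at 19.9, 16.02, 16.3 and 20.4 CPM in the controls and 105, 109, 100.1 and 95.5 CPM with thapsigargin, with a log2 fold change of 2.49 ± 0.09. Arc, an activity-regulated cytoskeletal gene best known from neurons, was at 3.83, 5.01, 4.04 and 4.03 CPM in the controls and 14.4, 15.9, 14.6 and 18.8 CPM with thapsigargin, and Ptgs2, which encodes the inducible prostaglandin synthase COX-2 (chromosome 1, 149975851 to 149983978), at 10.2, 10.5, 9.02 and 3.91 CPM in the controls and 36.1, 37.5, 37.1 and 21.4 CPM with thapsigargin. For Ptgs2 replicate 4 was the lowest library in both groups, and the log2 fold change was 1.98 ± 0.30 (adjusted p = 0.00114) against 1.91 ± 0.12 for Arc. Ier3, an early response gene of cell survival, rose by 1.75 ± 0.16, and Irs2, the insulin receptor substrate gene, by 1.01 ± 0.09 from 169 ± 9.32 to 340.3 ± 43.5 CPM (SD, n = 4).

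**Figure D2:**
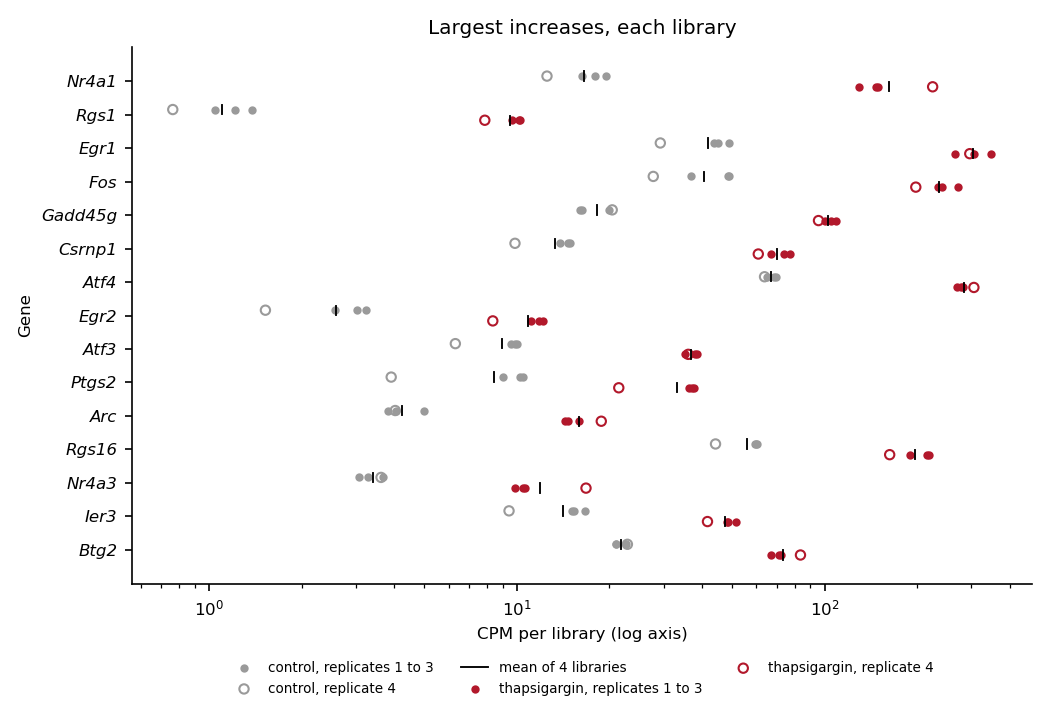
CPM in each library (log axis) for the 15 largest increases among genes with a mean log2 CPM of 2 or more, with controls in grey, thapsigargin in red, replicate 4 as open circles and black bars for the mean of 4 libraries. The genes were chosen without overlap of the groups, so the red points lie to the right of the grey ones by choice. Log2 fold changes run from Nr4a1 at 3.29 ± 0.20 to Btg2 at 1.75 ± 0.07 (SE).

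The promoters of 5 leading early genes are printed here because CREB, one of the factors calcium activates, binds the core TGACG in such windows. They are 5 of the 15 largest increases, each with a single window in the RefSeq promoter table. They were not chosen by size alone. Rgs1, Egr1, Csrnp1 and Egr2 had larger increases than Atf3 and are not printed, so the 5 do not stand for all leading genes. Each window runs from 250 bases before to 50 after the start on the gene's strand. The build is GRCm38.p6, whereas the counts use GRCm39. Capitals mark TGACG or, on the other strand, CGTCA. The windows lie at chr15:101266596-101266895, plus strand (Nr4a1), chr12:85473640-85473939, plus strand (Fos), chr13:51846425-51846724, plus strand (Gadd45g), chr15:80254934-80255233, plus strand (Atf4) and chr1:191183284-191183583, minus strand (Atf3).
Nr4a1: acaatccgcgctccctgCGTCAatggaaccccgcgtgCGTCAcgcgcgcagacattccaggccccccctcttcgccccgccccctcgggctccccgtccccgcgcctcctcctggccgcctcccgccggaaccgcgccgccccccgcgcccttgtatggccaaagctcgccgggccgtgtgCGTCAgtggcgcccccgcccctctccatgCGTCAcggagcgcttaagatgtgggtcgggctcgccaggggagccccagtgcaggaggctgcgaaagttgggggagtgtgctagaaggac
Fos: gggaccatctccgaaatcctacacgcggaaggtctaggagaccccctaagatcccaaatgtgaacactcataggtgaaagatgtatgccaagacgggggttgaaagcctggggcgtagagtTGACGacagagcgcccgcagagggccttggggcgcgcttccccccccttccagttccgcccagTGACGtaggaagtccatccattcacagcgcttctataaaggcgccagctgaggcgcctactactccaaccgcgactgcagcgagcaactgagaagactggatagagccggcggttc
Gadd45g: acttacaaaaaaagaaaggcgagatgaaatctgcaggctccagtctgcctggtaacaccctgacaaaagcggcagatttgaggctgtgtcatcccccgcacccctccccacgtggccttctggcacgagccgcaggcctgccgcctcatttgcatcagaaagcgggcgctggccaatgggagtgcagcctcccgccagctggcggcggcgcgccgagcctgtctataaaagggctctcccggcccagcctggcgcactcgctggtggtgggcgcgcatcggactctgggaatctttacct
Atf4: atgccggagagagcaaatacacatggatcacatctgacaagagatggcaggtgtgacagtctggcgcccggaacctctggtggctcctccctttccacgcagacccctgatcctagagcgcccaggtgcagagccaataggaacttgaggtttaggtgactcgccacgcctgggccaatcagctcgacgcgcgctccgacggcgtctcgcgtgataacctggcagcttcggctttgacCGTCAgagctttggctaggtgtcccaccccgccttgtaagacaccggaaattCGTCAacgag
Atf3: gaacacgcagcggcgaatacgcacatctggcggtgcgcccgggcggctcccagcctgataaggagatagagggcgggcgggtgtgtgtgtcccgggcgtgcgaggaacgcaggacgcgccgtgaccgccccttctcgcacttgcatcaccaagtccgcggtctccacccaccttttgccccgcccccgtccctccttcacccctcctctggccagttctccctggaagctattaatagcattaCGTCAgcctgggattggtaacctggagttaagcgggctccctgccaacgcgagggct

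The Nr4a1 window holds 4 such cores, those of Fos and Atf4 hold 2 each, that of Atf3 holds 1 and that of Gadd45g holds 0. Among all genes tested, 12600 matched the table with 16109 windows, and 28.5% of these windows hold TGACG on either strand. For the immediate early list it was 69.7% of 33 windows from 24 genes, for the genes at least 2-fold higher 34.0% of 162 windows, and for the genes at least 1.5-fold lower 19.2% of 99 windows. The whole CRE palindrome TGACGTCA, which contains the core, was in 2.79% of all windows, 3.03% of those of the early list and 3.09% of those of the genes at least 2-fold higher. The CArG box bound by SRF, searched as a pattern of letters like the others, was in 1.32% of all windows, 15.2% of the early list and 4.94% of the genes at least 2-fold higher. The letters CCAAT were in 37.7%, 36.4% and 48.1% in the same order. The EGR motif GCGNGGGCG was in 9.88%, 27.3% and 8.02%, and the AP-1 motif TGANTCA in 5.42%, 3.03% and 5.56%. The Sp1 motif GGGCGG was in 58.6%, 66.7% and 56.2%, the TATA motif TATAAA in 7.87%, 12.1% and 10.5%, and the ATF4 and C/EBP motif TGATGNAAN in 2.31%, 3.03% and 2.47%. These are all 9 motifs searched, each on both strands, and matches of the EGR and Sp1 motifs can share bases. A match of letters is a description of the window and does not show that a factor binds there.

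CREB coactivators and cAMP targets were higher in most cases. Of this list, 17 of 20 were higher and 0 lower, with a median of 0.42. Crtc3, a coactivator that calcineurin sends to the nucleus, was at 26.6, 27.4, 27.8 and 28.6 CPM in the controls and 43.7, 45.9, 44.7 and 47.9 CPM with thapsigargin, which put the groups far apart for a log2 fold change of 0.72 ± 0.04. Zfp36l2 and Btg2 are examples of genes whose products act in mRNA decay, which was not measured here. On the list of mRNA decay and antiproliferative factors 13 of 20 were higher and 1 lower (median 0.29). Btg2, which recruits the deadenylase of mRNA, was at 21.04, 22.6, 21.04 and 22.9 CPM in the controls and 66.8, 72.3, 71.03 and 83.5 CPM with thapsigargin and rose by 1.75 ± 0.07. Zfp36l2, which binds AU-rich elements, rose by 0.87 ± 0.07 from 76.5 ± 5.29 to 139 ± 11.3 CPM (SD, n = 4), and Zc3h12c, a regnase ribonuclease gene, by 0.76 ± 0.07. The single lower member of the decay list became 2 with the replicate block, without replicate 4, without control 3 and without thapsigargin 4.

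Among MAP kinase phosphatases and Sprouty genes, which limit receptor signalling, 12 of 18 were higher, 0 lower and 6 not called, with a median of 0.46. Dusp6, a phosphatase gene for ERK, was at 48.1, 54.6, 55.5 and 53.4 CPM in the controls and 136, 146, 139 and 156 CPM with thapsigargin, and Spry2, an inhibitor of receptor tyrosine kinase signalling, at 66.1, 68.7, 65.3 and 59.3 CPM in the controls and 161, 163, 165 and 172 CPM with thapsigargin. Neither gene had overlapping groups, and log2 fold changes were 1.45 ± 0.06 and 1.35 ± 0.05. Errfi1, an inhibitor of the EGF receptor, whose ligand was in the medium of both groups, was at 18.9, 18.8, 20.99 and 17.2 CPM in the controls and 38.1, 38.7, 39.7 and 35.1 CPM with thapsigargin, a log2 fold change of 0.999 ± 0.07 (adjusted p from 1.95e-06 to 2.10e-05). At an unadjusted p under 0.05, and with DESeq2, 0 members were lower on this list, on the immediate early list, on the CREB list or on the NF-kB list.

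RGS proteins shorten G protein signals. Of the RGS genes and related brakes 6 of 23 were higher (26.1%), 1 was lower (4.35%) and 16 were not called, with a median of 0.02. Over all genes tested 16.9% were higher and 13.4% lower. Rgs1 (chromosome 1, 144120407 to 144124862) was at 1.38, 1.05, 1.21 and 0.763 CPM in the controls and 9.68, 10.2, 10.2 and 7.87 CPM with thapsigargin, a log2 fold change of 3.11 ± 0.17 (adjusted p = 1.09e-05), the second largest among the genes with a mean log2 CPM of 2 or more. Rgs16 (chromosome 1, 153616099 to 153621212), far more abundant, was at 59.2, 60.5, 59.7 and 44.2 CPM in the controls and 189, 219, 216 and 163 CPM with thapsigargin and rose by 1.81 ± 0.12, and Rgs2 rose by 0.75 ± 0.05. Counts for this list were 10 higher and 6 lower with the replicate block and 10 higher and 4 lower without replicate 4. The higher count was 3 without thapsigargin 3. The single lower member was not called when any of the first 7 libraries (control 1 to 4, thapsigargin 1 to 3) was left out, and there were 2 without thapsigargin 4.

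NF-kB is a family of transcription factors held in the cytosol by inhibitors until a signal frees them. On the list of NF-kB subunits, inhibitors and SOCS genes 19 of 28 were higher and 0 lower, with a median of 0.32. Map3k14, the kinase of the noncanonical branch, was at 12.9, 14.03, 14.7 and 14.5 CPM in the controls and 43.2, 43.01, 40.9 and 44.1 CPM with thapsigargin. Rel, a subunit gene at a lower level, was at 4.43, 3.91, 4.48 and 4.17 CPM in the controls and 9.44, 9.12, 10.2 and 9.395 CPM with thapsigargin. The libraries of a group lay close together for both genes, and log2 fold changes were 1.61 ± 0.05 and 1.167 ± 0.08 (adjusted p from 1.95e-06 to 1.65e-05). Socs4, a suppressor of cytokine signalling, rose by 0.64 ± 0.05 from 33.3 ± 1.06 to 51.9 ± 3.23 CPM (SD, n = 4).

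Of 42 growth factors and cytokines, 9 were higher (21.4%) and 4 lower (9.52%), with a median of 0.04, near the 16.9% and 13.4% over all genes tested. The largest increases on the low end of the table were in genes under 1 CPM in every control. Cxcl1, a chemokine gene, was at 0.525, 0.664, 0.193 and 0.191 CPM in the controls and 2.56, 4.897, 3.67 and 2.401 CPM with thapsigargin, and Cxcl2 at 0.225, 0.204, 0.4401 and 0.191 CPM in the controls and 1.39, 1.76, 1.47 and 2.03 CPM with thapsigargin. Their thapsigargin libraries were all above the controls, with log2 fold changes of 3.09 ± 0.40 and 2.65 ± 0.26. Osm, the cytokine oncostatin M, was at 0.3003, 0.204, 0.248 and 0.143 CPM in the controls and 1.03, 0.832, 0.631 and 1.43 CPM with thapsigargin, Il1rn, the interleukin-1 receptor antagonist gene, at 0.2502, 0.256, 0.138 and 0.119 CPM in the controls and 0.775, 0.808, 0.772 and 0.739 CPM with thapsigargin, and Olr1, a scavenger receptor gene, at 0.325, 0.230, 0.4401 and 0.0953 CPM in the controls and 1.36, 1.25, 0.982 and 0.877 CPM with thapsigargin. These 3 rose by 2.13 ± 0.32, 2.004 ± 0.24 and 2.04 ± 0.34 (adjusted p from 0.000121 to 0.00209 over the 5 genes). Some of these genes are typical of myeloid cells, and the 14 microglia markers summed to 173 to 269 CPM in controls and 149 to 213 CPM with thapsigargin, 0 of them higher and 2 lower. The part of microglia in the cytokine values was not tested. Counts for the growth factor list were 18 higher and 13 lower with the block and 17 higher and 9 lower without replicate 4, and the 4 lower members became 1 without control 1, 1 without control 2, 2 without control 3, 2 without thapsigargin 1 and 1 without thapsigargin 3.

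Of BMP and TGF-beta responsive genes 7 of 20 were higher and 1 lower (median 0.05), among them Id3, an inhibitor of helix-loop-helix factors, at 238, 241, 262 and 175 CPM in the controls and 428, 422, 425 and 315 CPM with thapsigargin and Smad7, an inhibitor of TGF-beta receptors, at 9.51, 9.301, 10.8 and 8.58 CPM in the controls and 14.9, 18.1, 17.2 and 15.95 CPM with thapsigargin. Id3 was lowest in replicate 4 of both groups, and the groups did not overlap for either gene. Log2 fold changes were 0.79 ± 0.14 and 0.80 ± 0.09. Of Wnt and Notch targets 6 of 19 were higher (31.6%) and 2 lower (10.5%), with a median of 0.20. Axin2, a negative regulator of Wnt signalling, rose by 0.68 ± 0.11 and Znrf3, a ligase that removes Wnt receptors, by 0.60 ± 0.05. Hes1, a repressor that Notch induces, was at 7.86, 7.92, 9.13 and 11.6 CPM in the controls and 21.9, 22.7, 21.5 and 33.4 CPM with thapsigargin, highest in replicate 4 of both groups, and rose by 1.45 ± 0.18. Of the targets of YAP and SRF 6 of 23 were higher (26.1%) and 4 lower (17.4%), with a median of -0.04. The BMP list was at 35.0% higher and 5.0% lower, and all genes tested at 16.9% and 13.4%. Amotl2, which holds YAP outside the nucleus, was at 26.5, 29.3, 30.6 and 24.9 CPM in the controls and 84.04, 102, 92.9 and 73.2 CPM with thapsigargin and rose by 1.66 ± 0.11, while Ajuba, a LIM protein gene, rose by 0.79 ± 0.04. Nuak2, a kinase gene, rose by 1.52 ± 0.09 from 26.3 ± 3.12 to 75.4 ± 6.78 CPM (SD, n = 4; adjusted p from 6.12e-06 to 0.00228 over the 8 genes of this paragraph). With the block the counts were 9 higher and 5 lower for BMP, 7 higher and 5 lower for Wnt and Notch and 8 higher and 10 lower for YAP and SRF, and without replicate 4 they were 9 higher and 5 lower, 8 higher and 4 lower and 8 higher and 9 lower. The lower BMP member was not called without control 1, 2 or 3 or thapsigargin 1, and 1 of the 2 lower Wnt and Notch members was left without control 3.

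ER stress genes were called in both directions. Of 23 regulators of the ATF4 and CHOP branch, 11 were higher (47.8%, against 16.9% of all genes tested), 1 was lower and 11 were not called, with a median of 0.31. Atf4 (gene 11911, chromosome 15, 80139385 to 80141746) was at 65.1, 69.4, 68.5 and 63.8 CPM in the controls and 277, 269, 281 and 306 CPM with thapsigargin. Its libraries were tight in both groups, and the log2 fold change was 2.09 ± 0.05 (adjusted p = 2.44e-07), the smallest standard error among the 15 largest increases. Ddit3, which encodes CHOP, was at 13.96, 14.1, 14.1 and 12.4 CPM in the controls and 34.01, 36.7, 37.1 and 28.9 CPM with thapsigargin, and Ppp1r15a, which directs the phosphatase that restores eIF2alpha, at 16.1, 17.2, 17.99 and 16.8 CPM in the controls and 37.4, 37.03, 39.7 and 41.8 CPM with thapsigargin. They rose by 1.33 ± 0.09 and 1.197 ± 0.06. The lower member of this list was not called without control 3, and 2 were without thapsigargin 1.

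Among 31 metabolic genes that ATF4 is known to induce, edgeR called 0 higher and 12 lower, with a median of -0.13. Psat1, an enzyme of serine synthesis (chromosome 19, 15882487 to 15902423), was at 468, 455, 461 and 479.5 CPM in the controls and 362, 359, 359.8 and 389 CPM with thapsigargin, so that every thapsigargin library was below every control. Psph, the last enzyme of that pathway, was at 49.8, 49.98, 50.5 and 50.3 CPM in the controls and 42.8, 40.8, 40.9 and 42.6 CPM with thapsigargin. Their log2 fold changes were -0.34 ± 0.04 and -0.26 ± 0.03 (adjusted p from 0.000249 to 0.000494). With the block 3 higher and 19 lower were called and without replicate 4, 3 higher and 17 lower, and 1 was higher without control 4. At an unadjusted p under 0.05, and with DESeq2, 0 of the 31 were higher.

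ER chaperones showed small changes, 2 of 21 higher (9.52%) and 7 lower (33.3%), with a median of -0.05. Over all genes tested 16.9% were higher and 13.4% lower. Hspa5, which encodes the chaperone BiP (chromosome 2, 34662102 to 34666541), was at 851, 856, 828 and 849 CPM in the controls and 967, 931, 958 and 915 CPM with thapsigargin. The thapsigargin libraries were all above the controls by a small margin, a log2 fold change of 0.16 ± 0.03 (adjusted p = 0.00853). Calr, which encodes the calcium-binding chaperone calreticulin, was at 1049.9, 1043, 1089.8 and 1063 CPM in the controls and 948, 914, 909.9 and 887 CPM with thapsigargin and fell by 0.21 on the log2 scale, and Dnajc10, a reductase of the ER, fell by 0.38 from 229 ± 3.71 to 175 ± 2.12 CPM (SD, n = 4). Among genes of ER-associated degradation and unfolded protein response sensors 7 of 28 were higher (25.0%) and 6 lower (21.4%), with a median of -0.02. Herpud1, a membrane protein of degradation that ATF4 and ATF6 induce, was at 22.3, 20.9, 21.4 and 22.6 CPM in the controls and 37.4, 38.02, 37.7 and 42.3 CPM with thapsigargin and rose by 0.83 ± 0.05. Xbp1, the transcript that IRE1 splices, rose by 0.51 ± 0.05 from 44.3 ± 2.999 to 63.2 ± 2.30 CPM; spliced and unspliced forms are not told apart in gene counts. Edem3, a mannosidase gene of degradation, fell by 0.43 (adjusted p from 1.65e-05 to 0.00213 over these 5). The chaperone counts were 4 higher and 8 lower with the block and 5 higher and 7 lower without replicate 4, with 4 lower without control 2, control 3 or thapsigargin 2 and 1 higher without control 1, thapsigargin 1 or thapsigargin 3. For degradation and sensors they were 10 higher and 11 lower with the block and 11 higher and 7 lower without replicate 4.

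Of 42 genes of the translocon, signal peptidase and vesicle coats, 4 were higher and 17 lower, with a median of -0.09. Spcs3, a signal peptidase subunit, was at 108, 108, 103 and 104 CPM in the controls and 75.04, 75.2, 76.97 and 72.2 CPM with thapsigargin, a log2 fold change of -0.50 ± 0.03. Tram1l1, a relative of a translocon protein (chromosome 3, 124114686 to 124116909), was at 8.28, 8.53, 8.58 and 9.603 CPM in the controls and 3.92, 4.64, 4.09 and 5.15 CPM with thapsigargin, a log2 fold change of -0.97 ± 0.10. Sec24a and Sec24b, cargo adaptors of the COPII coat, moved the other way and rose by 0.46 ± 0.04 and 0.43 ± 0.03 (adjusted p from 2.33e-05 to 0.000154 over the 4 genes). The higher members numbered 6 with the block, 10 without replicate 4 and 7 without control 4.

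Calcium handling was covered by 3 lists, against shares over all genes tested of 16.9% higher and 13.4% lower. Of 19 genes of store-operated entry, 2 were higher (10.5%) and 2 lower (10.5%), with a median of -0.02. Stim1 was at 59.1, 57.9, 64.2 and 68.7 CPM in the controls and 57.6, 61.5, 59.8 and 67.96 CPM with thapsigargin, a log2 fold change of -0.02 ± 0.07 (adjusted p = 0.878), and the groups overlapped. Orai1 was at 24.6, 24.2, 25.4 and 20.6 CPM in the controls and 27.6, 25.04, 26.4 and 25.3 CPM with thapsigargin, a log2 fold change of 0.14 ± 0.07 (adjusted p = 0.174, adjusted p = 0.0141 with the block and 0.0217 without replicate 4). Trpc1, a channel gene, was at 17.1, 16.3, 16.1 and 17.2 CPM in the controls and 23.1, 23.6, 23.9 and 27.3 CPM with thapsigargin, with no overlap and a rise of 0.55 ± 0.06 (adjusted p = 0.000231). The gene of the pump that the drug blocks, Atp2a2 (SERCA2), was at 535, 525, 529 and 511 CPM in the controls and 500.3, 505, 499 and 478 CPM with thapsigargin. All thapsigargin libraries were below all controls, but the log2 fold change of -0.08 ± 0.03 did not pass the test (adjusted p = 0.103), and it did with the block (adjusted p = 0.00942).

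Of 24 genes for calcium pumps, exchange and release, 1 was higher (4.17%) and 4 lower (16.7%), with a median of -0.11. Micu3, a regulator of calcium uptake by mitochondria, was at 7.46, 6.39, 6.77 and 7.01 CPM in the controls and 11.04, 11.9, 11.6 and 11.9 CPM with thapsigargin and rose by 0.75 ± 0.07, with no overlap of the groups. Among calcineurin, NFAT and calmodulin kinase genes 4 of 29 were higher (13.8%) and 5 lower (17.2%), with a median of -0.05. Rcan1, the feedback inhibitor of calcineurin that NFAT induces, was at 52.6, 58.5, 53.99 and 47.6 CPM in the controls and 105, 100.5, 102 and 92.3 CPM with thapsigargin, a rise of 0.91 ± 0.07. Nfatc3 rose by 0.48 ± 0.04, and Calm2, a calmodulin gene, fell by 0.39 from 389.5 ± 31.9 to 297 ± 20.6 CPM (SD, n = 4; adjusted p from 2.67e-05 to 0.00255 over these 4). With the block the counts were 3 higher and 6 lower for store-operated entry, 4 higher and 10 lower for pumps and 10 higher and 12 lower for the calcineurin list, and without replicate 4 they were 6 higher and 3 lower, 5 higher and 9 lower and 10 higher and 8 lower. The lower counts also moved with single libraries: for pumps 1 without control 1, 2 without control 2 and 2 without control 3, for the calcineurin list 3 without control 1 and 3 without control 3, and for store-operated entry 1 without control 2. The single higher pump gene became 2 without control 4 or thapsigargin 4.

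Decreases were smaller than the leading increases, and they included genes of hyaluronan metabolism and glycosyltransferases. Cemip2, a hyaluronidase of the cell surface (GRCm39 chromosome 19, 21755704 to 21835724), was at 32.3, 32.3, 34.3 and 41.7 CPM in control replicates 1 to 4 and 11.7, 13.3, 11.1 and 12.1 CPM in thapsigargin replicates 1 to 4. Its log2 fold change was -1.54 ± 0.10 (SE, adjusted p = 1.47e-05), and the highest thapsigargin library was below the lowest control. B4galt5, a galactosyltransferase of glycolipids (chromosome 2, 167140364 to 167191155), was at 49.5, 46.5, 50.1 and 62.0 CPM in the controls and 21.4, 20.9, 22.3 and 24.4 CPM with thapsigargin, a log2 fold change of -1.23 ± 0.09. Control 4 was the highest library of both genes. Slc35d1, a transporter of nucleotide sugars, was at 16.3, 16.7, 15.9 and 22.2 CPM in the controls and 8.46, 8.85, 9.05 and 12.3 CPM with thapsigargin, with replicate 4 highest in each group, and Lfng, a glycosyltransferase that modifies Notch, at 203, 204, 216 and 174 CPM in the controls and 115, 119.7, 118 and 105 CPM with thapsigargin. These fell by 0.88 and 0.80 on the log2 scale. Of 44 genes of hyaluronan metabolism and glycosyltransferases, edgeR called 0 higher and 18 lower, with a median of -0.17, and Hyal2, another hyaluronidase, was at -0.56 ± 0.04. With the block 2 higher and 32 lower were called and without replicate 4, 5 higher and 27 lower, and 2 were higher without control 4. At an unadjusted p under 0.05, and with DESeq2, 0 were higher.

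Megf6 (chromosome 4, 154255156 to 154360178), which encodes a protein with EGF-like repeats, was at 199.9, 194, 205 and 231 CPM in the controls and 105, 108, 98.95 and 102 CPM with thapsigargin. Agrn, the proteoglycan agrin (chromosome 4, 156249747 to 156281997), was at 525, 498, 519 and 578 CPM in the controls and 285, 323, 320.3 and 294 CPM with thapsigargin. The groups were separate for both genes, which were among the more abundant of the large decreases, and log2 fold changes were -1.002 ± 0.06 and -0.79 ± 0.06. Sema4d, a semaphorin, was at -0.86 ± 0.13, Ntng1, a netrin-like adhesion gene, at -0.85 ± 0.13, the thiamine transporter gene Slc19a2 at -0.86 ± 0.12, Pcyox1l at -0.85 ± 0.04, and S100a11, a calcium-binding protein, at -0.79 ± 0.09. Adjusted p of the 14 large decreases described here, Ccne2 and Ccnf included, ran from 9.83e-06 to 0.00623.

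**Figure D3:**
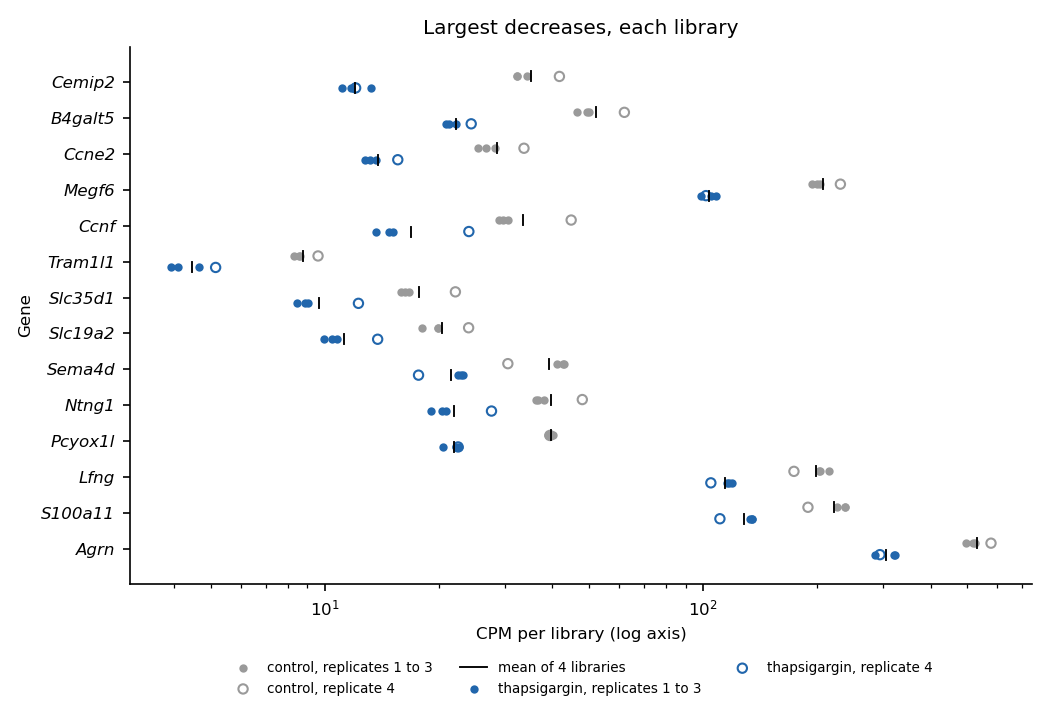
CPM in each library (log axis) for 14 of the 15 largest decreases among genes with a mean log2 CPM of 2 or more, with controls in grey, thapsigargin in blue, replicate 4 as open circles and black bars for the mean of 4 libraries. The genes were chosen without overlap of the groups, so the blue points lie to the left of the grey ones by choice. In B4galt5, Ccne2, Ccnf, Tram1l1, Slc35d1, Slc19a2 and Ntng1 replicate 4 is the highest library of each group. In Sema4d, Lfng and S100a11 it is the lowest of each group.

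Cyclins were called in both directions. Of 34 cyclins and cell cycle regulators, 10 were higher (29.4%) and 7 lower (20.6%), against 16.9% and 13.4% of all genes tested. Their median of -0.05 was near the -0.04 over all genes tested. Ccne2, the cyclin E2 gene of entry into S phase (chromosome 4, 11190489 to 11204779), was at 26.7, 28.2, 25.5 and 33.6 CPM in the controls and 13.2, 13.7, 12.8 and 15.6 CPM with thapsigargin, a log2 fold change of -1.05 ± 0.10. Ccnf, a cyclin of a ubiquitin ligase (chromosome 17, 24441518 to 24470333), was at 29.6, 30.6, 28.9 and 44.8 CPM in the controls and 14.8, 15.2, 13.7 and 24.1 CPM with thapsigargin, a log2 fold change of -0.98 ± 0.21. Plk2, a kinase gene induced by serum and stress, rose by 0.96 ± 0.04 from 26.8 ± 0.727 to 52.2 ± 0.734 CPM (SD, n = 4). In all 3 genes the groups did not overlap. The 13 proliferation markers had 0 higher and 1 lower, and summed to 2200 to 3020 CPM in controls and 2240 to 2880 CPM with thapsigargin. Replicate 4 was the highest library in both groups. For these markers 2 were higher and 6 lower with the block, and 3 higher and 4 lower without replicate 4. Lower cyclin genes numbered 14 with the block, and 4 without thapsigargin 1 or thapsigargin 3.

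Several large families had many lower members, each by a small amount. Complex I subunits of the respiratory chain were lower in 35 of 37 cases, with 0 higher and a median of -0.21. Ndufa5 was at 53.5, 50.6, 57.1 and 49.7 CPM in the controls and 40.7, 37.2, 38.8 and 37.6 CPM with thapsigargin, a log2 fold change of -0.45 ± 0.05. Proteasome subunits were lower in 22 of 42 cases with 0 higher (median -0.13), and Psma5 was at 81.2, 78.9, 76.8 and 83.3 CPM in the controls and 60.6, 60.6, 60.7 and 63.5 CPM with thapsigargin, a log2 fold change of -0.38 ± 0.04. Cytosolic ribosomal protein genes were lower in 36 of 80 cases with 0 higher, and all 80 had a log2 fold change below 0 (-0.39 to -0.09, median -0.17). Rpl21, at -0.39 ± 0.07, had the largest decrease of them, and its values are uncertain because ribosomal protein genes have near-identical processed copies. At an unadjusted p under 0.05, 1 proteasome subunit and 0 members of the other families were higher, and DESeq2 called 1 proteasome subunit and 0 of the others higher. The lower counts rest on the fit, as does the count of lower genes over all genes tested. With the block 79 of 80 ribosomal protein genes, 31 proteasome and 36 complex I subunits were lower. Lower ribosomal protein genes numbered 22 without control 1, 23 without control 2, 19 without control 3, 23 without thapsigargin 1, 20 without thapsigargin 2, 18 without thapsigargin 3 and 72 without thapsigargin 4, and lower proteasome subunits 13 without control 1, 14 without control 2, 14 without control 3, 14 without thapsigargin 2 and 13 without thapsigargin 3. Higher proteasome subunits numbered 2 with the block, 3 without replicate 4 and 1 without control 4. Mitochondrially encoded genes had 1 of 13 lower, with a median of -0.25, and made up 2.46 to 2.99% of counts in controls and 1.95 to 2.63% with thapsigargin. The lower gene was COX2, a subunit of cytochrome oxidase, at 1958, 1915, 1786 and 1739 CPM in the controls and 1321, 1619, 1632 and 1247 CPM with thapsigargin (adjusted p = 0.0207). It was not called without replicate 4 (adjusted p = 0.101) or without control 1, 2 or 3 or thapsigargin 1, and 5 of the 13 were lower with the block.

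Host genes of small nucleolar RNAs, noncoding genes whose introns carry guides for ribosomal RNA modification, were higher in part. Of 17, 7 were higher (41.2%), 6 of them at least 2-fold, and 3 lower (17.6%), with a median of 0.03. Over all genes tested 16.9% were higher and 13.4% lower. Snhg1 (chromosome 19, 8700851 to 8703690) was at 13.2, 14.3, 13.4 and 15.1 CPM in the controls and 34.2, 33.7, 35.7 and 40.1 CPM with thapsigargin and Snhg15 (chromosome 11, 6475591 to 6478760) at 4.95, 5.16, 5.53 and 6.005 CPM in the controls and 12.4, 12.1, 12.6 and 15.8 CPM with thapsigargin. The groups lay well apart, with log2 fold changes of 1.36 ± 0.07 and 1.29 ± 0.11 (adjusted p from 9.83e-06 to 4.50e-05). Of 36 ribosome biogenesis factors, 9 were higher (25.0%) and 2 lower (5.56%), with a median of 0.02. Taf1a, a factor of RNA polymerase I, was at 1.03 ± 0.12 and Nop16, a nucleolar protein, at -0.49 ± 0.05. Counts of biogenesis factors were 14 higher and 8 lower with the block and 15 higher and 7 lower without replicate 4. The higher count was 14 without control 4, and the lower count 1 without control 1, 1 without control 2, 1 without control 4, 1 without thapsigargin 1, 1 without thapsigargin 2, 1 without thapsigargin 3 and 5 without thapsigargin 4. Lower host genes numbered 5 with the block and 0 without control 1, 2 or 3.

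Zinc finger genes, many of them repressors of transposable elements, made up the longest list. Of 340 genes named Zfp, 240 were higher and 4 lower, 25 at least 2-fold, and their median log2 fold change was 0.52 against -0.04 over all genes tested. Zfp655 was at 18.4, 19.01, 17.5 and 18.9 CPM in the controls and 33.7, 33.3, 33.1 and 32.5 CPM with thapsigargin, a log2 fold change of 0.85 ± 0.04, and Zfp592 at 31.03, 32.4, 31.1 and 32.4 CPM in the controls and 52.6, 56.5, 55.1 and 60.8 CPM with thapsigargin, a log2 fold change of 0.83 ± 0.05. Family members with similar sequence may share reads. With the block 281 were higher and 12 lower, and without replicate 4 the counts were 282 and 6. The lower count was 1 without control 2, 2 without control 3, 2 without control 4, 1 without thapsigargin 1, 1 without thapsigargin 3 and 7 without thapsigargin 4. Chromatin enzymes rose in 24 of 42 cases with 1 lower (median 0.28). Setd2, the methyltransferase of histone H3 lysine 36, was at 58.6, 61.1, 58.4 and 70.3 CPM in the controls and 95.97, 98.4, 96.4 and 108 CPM with thapsigargin, a log2 fold change of 0.68 ± 0.07. Of splicing kinases and SR proteins 9 of 27 were higher and 0 lower (median 0.12), and Clk4, a kinase of SR proteins, was at 38.6, 37.3, 36.8 and 36.5 CPM in the controls and 52.7, 55.9, 54.8 and 58.1 CPM with thapsigargin, a log2 fold change of 0.57 ± 0.04 (adjusted p from 9.20e-06 to 0.000116 over these 4 genes). At an unadjusted p under 0.05, 1 splicing gene was lower, and DESeq2 called 0. Higher splicing genes numbered 16 with the block, 17 without replicate 4 and 16 without control 4. The lower chromatin enzyme was called neither without control 2, 3 or 4 nor without thapsigargin 1, 2 or 3, and there were 2 with the block and without thapsigargin 4.

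**Figure D4:**
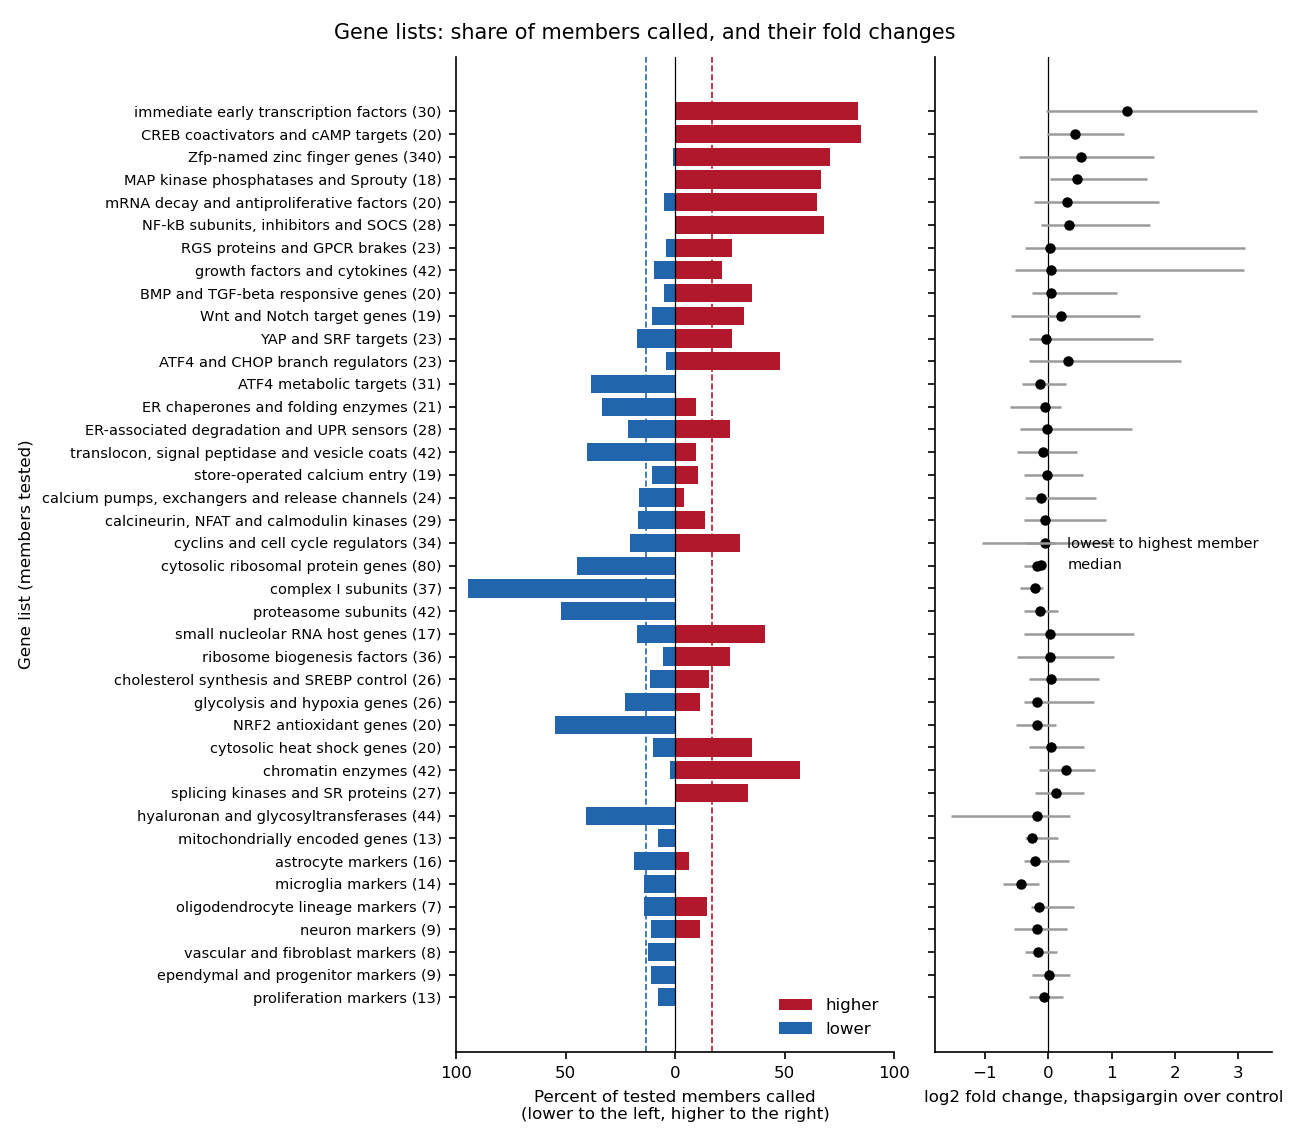
Left, percent of the tested members of each of 40 gene lists that were called higher (red, to the right) or lower (blue, to the left), with dashed lines at 16.9% and 13.4% of all genes tested. Right, the median log2 fold change (black) and the range of members (grey line) of each list, from a median of 1.24 for immediate early transcription factors to -0.43 for microglia markers.

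The direction of change went with gene length and level. Protein-coding genes were split into quintiles by their combined exon length. In the shortest quintile (median 1411 bases) 6.45% were higher and 25.0% lower, and in the longest (median 9910 bases) 29.3% were higher and 7.72% lower. The share of higher genes grew in every step, 14.9%, 19.9% and 24.5% in the 3 middle quintiles, while that of lower genes fell from 15.1% to 14.1% and 11.1%. Median log2 fold changes went from -0.13 to 0.08, and were -0.13 to 0.08 with the block as well. By average level, 30.9% of the most abundant quintile were lower and 10.8% higher, against 11.6% and 29.6% in the middle one. Of long noncoding RNAs, 3.23% were higher and 4.06% lower (1578 tested), at a median of 0.796 CPM in controls against 25.9 CPM for protein-coding genes. The ribosomal protein, complex I and proteasome genes are mostly short and abundant, and the part of length or level in their counts was not tested. Zfp655, Zfp592 and Setd2, described above as higher, have combined exon lengths of 6098, 7462 and 9205 bases. The part of length in the counts of Zfp-named genes and chromatin enzymes was not tested either.

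**Figure D5:**
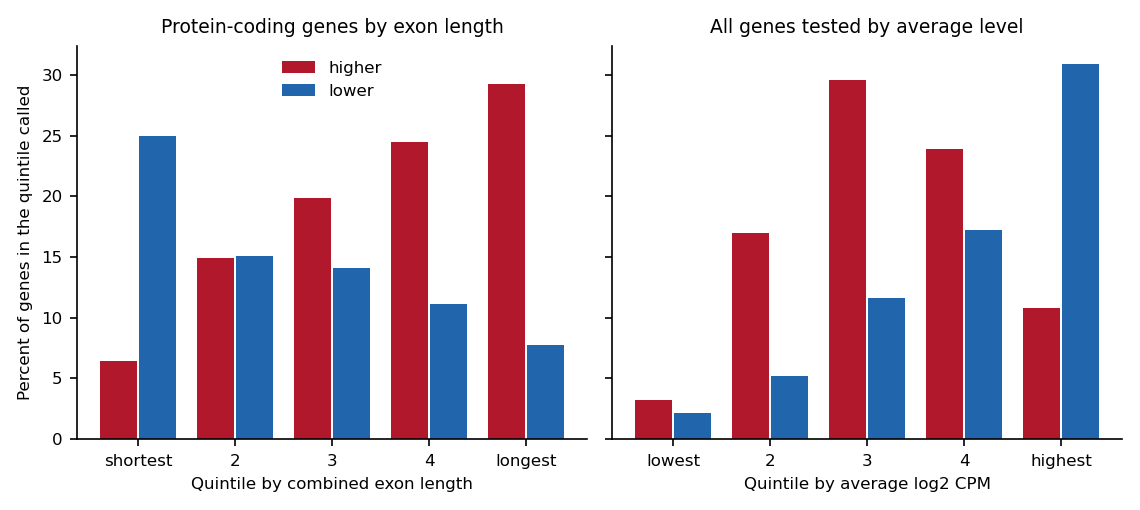
Percent of genes called higher (red) and lower (blue) in quintiles of protein-coding genes by combined exon length (left) and of all genes tested by average level (right). Red bars grow from 6.45% in the shortest to 29.3% in the longest quintile, and blue bars shrink from 25.0% to 7.72%.

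Further lists covered metabolism and stress outside the ER. Of 26 genes of cholesterol synthesis and SREBP control, 4 were higher (15.4%) and 3 lower (11.5%), with a median of 0.04, close to the 16.9% and 13.4% over all genes tested. Insig1, which retains SREBP in the ER, was at 122, 133, 139 and 127 CPM in the controls and 233, 215, 223 and 237 CPM with thapsigargin, a log2 fold change of 0.80 ± 0.05, and Srebf2, which encodes SREBP-2, was at -0.25 ± 0.04. Of 26 glycolysis and hypoxia genes, 3 were higher and 6 lower (median -0.17), and Pfkfb3, the enzyme that makes the activator of glycolysis fructose 2,6-bisphosphate, was at 143, 145, 152 and 138 CPM in the controls and 236, 234, 241 and 231 CPM with thapsigargin, a log2 fold change of 0.70 ± 0.04. NRF2 antioxidant genes were lower in 11 of 20 cases with 0 higher (median -0.17). Prdx1, a peroxiredoxin, was at 746, 717, 716 and 656 CPM in the controls and 564, 545, 539 and 495 CPM with thapsigargin, a log2 fold change of -0.40 ± 0.05, and Gsta4, a glutathione transferase, at -0.51 ± 0.06. Cytosolic heat shock genes were higher in 7 of 20 cases and lower in 2 (median 0.04), with Hspa1a at 7.51, 6.899, 6.77 and 6.196 CPM in the controls and 9.91, 10.3, 10.9 and 9.42 CPM with thapsigargin, a log2 fold change of 0.57 ± 0.08. The near-identical copy Hspa1b makes that value uncertain.

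Counts on these 4 lists depended on single libraries and on replicate 4, as did the counts over all genes tested. There, lower genes went from 2263 to 4910 with the block, and to 1341, 1327 and 1416 without control 1, 2 or 3. For NRF2 genes, 1 was higher at an unadjusted p under 0.05 and 1 with DESeq2. Higher cholesterol genes numbered 11 with the block, 12 without replicate 4 and 11 without control 4, and lower ones 6 with the block and 5 without replicate 4. Lower glycolysis genes numbered 2 without control 2 or control 3, and without replicate 4 they numbered 4. Lower NRF2 genes numbered 4 without control 1, 4 without control 2, 4 without control 3, 7 without thapsigargin 2 and 6 without thapsigargin 3, and 16 with the block, where 1 was higher, as it was without replicate 4 and without thapsigargin 4. Lower heat shock genes numbered 7 with the block, 6 without replicate 4, 1 without control 3 and 4 without thapsigargin 4.

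Marker genes of cell types had a median below 0 in 6 of 7 lists. Over all genes tested the median was -0.04, with 16.9% higher, 13.4% lower, and 29.1% lower with the block. Microglia markers had a median of -0.43, with all 14 below 0 (-0.71 to -0.14), 2 lower in the fit without the block, 13 lower with it and 11 without replicate 4. The 2 were Cd68, a lysosomal protein, at 8.98, 8.84, 9.63 and 6.93 CPM in the controls and 6.74, 6.79, 6.76 and 5.01 CPM with thapsigargin, and Trem2, a lipid receptor, at 2.68, 3.19, 3.03 and 3.91 CPM in the controls and 2.302, 2.31, 2.31 and 2.56 CPM with thapsigargin. Their log2 fold changes were -0.44 ± 0.13 and -0.43 ± 0.13 (adjusted p from 0.0312 to 0.032). Both calls depended on single libraries. Cd68 was not called without control 1, 2 or 3 or thapsigargin 1, 2 or 3, nor Trem2 without control 2, 3 or 4 or thapsigargin 1, 2 or 3. Lower microglia markers numbered 1 without control 1, 0 without control 2, 0 without control 3, 9 without control 4, 0 without thapsigargin 1, 0 without thapsigargin 2 and 0 without thapsigargin 3. Of 16 astrocyte markers 1 was higher and 3 lower (median -0.21), with 13 lower with the block and 12 without replicate 4. The lower count was 6 without control 4, 5 without thapsigargin 1 and 5 without thapsigargin 4. Slc1a3 was at -0.27 ± 0.05, and Sox9, a transcription factor of astrocytes, was the higher one at 159, 156, 158 and 164 CPM in the controls and 199, 199.8, 195 and 209 CPM with thapsigargin, a log2 fold change of 0.33 ± 0.03 (adjusted p from 0.000149 to 0.00233).

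The other marker lists had smaller sums than the 16 astrocyte markers. The lists differ in length, with 9 genes on the progenitor list, so the sums do not compare levels per gene. None of these lists' members was at 0 in all 8 libraries. Vascular and fibroblast markers summed to 2470 to 3390 CPM in controls and 2190 to 3020 CPM with thapsigargin, oligodendrocyte lineage markers to 1760 to 1900 and 1700 to 2050 CPM, neuron markers to 398 to 427 and 366 to 407 CPM, and ependymal and progenitor markers to 6650 to 7760 and 6700 to 7640 CPM. The shares over all genes tested were 16.9% higher and 13.4% lower. Higher and lower calls were 1 and 1 of 7 oligodendrocyte markers tested, 1 and 1 of 9 neuron markers, 0 and 1 of 8 vascular markers and 0 and 1 of 9 progenitor markers. With the block they were 1 and 4, 1 and 3, 0 and 3, and 3 and 4, and without replicate 4 they were 1 and 3, 1 and 3, 1 and 3, and 4 and 3. The lower oligodendrocyte marker was lost without any of control 1 to 3, thapsigargin 2 or thapsigargin 3, and there were 2 without thapsigargin 4. Progenitor markers had 3 higher without control 4 and 2 lower without thapsigargin 4, and proliferation markers 2 higher without control 4 and 3 lower without thapsigargin 4. At an unadjusted p under 0.05, 2 progenitor markers were higher, as with DESeq2, and 0 microglia, vascular or proliferation markers were higher by either.

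A test of whether the response of replicate 4 differed from that of the others, added after the values were seen, called 13 of 16871 genes (0.0771%). The largest difference was in Hes5, a Notch-induced repressor, at 1.201, 1.41, 1.62 and 1.36 CPM in the controls and 1.36, 1.59, 1.82 and 4.32 CPM with thapsigargin, where the change in replicate 4 was larger by 1.48 on the log2 scale (adjusted p = 0.0369). Fosl2, an AP-1 subunit gene, was at 48.04, 50.95, 52.7 and 31.4 CPM in the controls and 98.2, 98.7, 92.6 and 83.8 CPM with thapsigargin, with control 4 the lowest of all 8 libraries. Polr2m was at 119, 130.2, 124 and 219 CPM in the controls and 112, 115, 118 and 129.8 CPM with thapsigargin, and there the difference was -0.64 (adjusted p = 2.57e-05), with control 4 the highest library. Ier2 was the only one of the 13 among the genes described above as responding, with a response larger by 0.51 in replicate 4.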

How the data were processed

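Poly-A RNA of 4 control and 4 thapsigargin cultures was compared. The submitters' processing notes name the genome GRCm39 and the tools STAR 2.7.2b, featureCounts 1.6.4, cutadapt 1.17 and bcl2fastq 2.20.0.422. Settings for strand and multi-mapping reads were not found in the labels or headers. The authors deposited estimated counts per gene (expected counts, 14.7% to 15.9% of values per library not whole), which were rounded. The deposited table also gives coordinates and exon lengths.

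Genes passing a minimum count of 10 were tested with edgeR 4.0.16 (R 4.3.3, quasi-likelihood, robust, TMM), adjusted by Benjamini and Hochberg and called at 0.05. Standard errors came from the F statistic, CPM of genes from normalised library sizes, and CPM of Xist, Y-linked genes and marker sums from raw totals. The script was tested on simulated data. Alternatives were a replicate block, all 12 libraries, left-out replicates, RLE or upper quartile factors, no filter and DESeq2 1.42.0.

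Replicate numbers come from the sample titles. The main fit left the replicate number out, and the block used it as an alternative. Deviations from group means correlated between same-numbered libraries at r = 0.295, 0.385, 0.341 and 0.841 across genes. Libraries of unlike number among replicates 1 to 3 correlated at 0.36 to 0.417. Pairing by number came from replicate 4: without it the r of same-numbered libraries was -0.108, -0.0379 and -0.0471. No pair of libraries within a group was close enough to be 1 library deposited again (chi-square per degree of freedom of at least 1.659). Pairs among replicates 1 to 3 were at 1.659 to 5.063, and pairs with replicate 4 at 38.65 to 41.56. Replicates 1 to 3 were thus far closer to each other than to replicate 4. Whether they came from separate mice is not stated, so the 4 libraries of a group may not be 4 independent mice.

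Of 40 gene lists, 33 were of pathways or families and 7 of cell markers. Lists and members were chosen with earlier results of these data known. Genes named are the 15 largest increases and decreases among called genes without overlap at a mean log2 CPM of at least 2 (unnamed genes left out), 5 each at 7 or above, 5 increases below 2, up to 4 of smallest p per list, and a fixed set of calcium and stress genes. Of these, 101 are described, 3 are not reported here, and genes named in the test of replicate 4 were taken from its calls. Promoter windows are RefSeq's, build GRCm38.p6. P-values measure the spread between these libraries, and precision is that of read counts without molecular identifiers.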

Additional observations from a re-analysis of the deposited data

Results flagged for a closer look

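Among 202 groups of 4 libraries examined for the genes described, 1 library lay far from the other 3 in 24, where chance gives about 1 in 20. In 23 of the 24 that library was replicate 4. It was the highest control for Ccnf (44.8 CPM), Slc35d1 (22.2 CPM), Ntng1 (48.0 CPM) and Taf1a (10.7 CPM), and the lowest control for Atf3 (6.31 CPM), Rgs16 (44.2 CPM), Sema4d (30.5 CPM), Nfil3 (13.1 CPM) and Ddit3 (12.4 CPM). It was the highest thapsigargin library for Nr4a3 (16.8 CPM), Ccnf (24.1 CPM), Slc35d1 (12.3 CPM), Hes1 (33.4 CPM), Psat1 (389 CPM), Herpud1 (42.3 CPM), Psma5 (63.5 CPM), Snhg15 (15.8 CPM) and Trem2 (2.56 CPM), and the lowest for Ptgs2 (21.4 CPM), Sema4d (17.7 CPM), S100a11 (111 CPM), Id3 (315 CPM) and Cd68 (5.01 CPM). Cxcl2 had its highest control value, 0.44 CPM, in replicate 3. 

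The change with thapsigargin in replicate 4 was larger, in log2 units, than in replicates 1 to 3 for Zfp131 (0.59), Traf4 (0.43), Fosl2 (0.48), Jund (0.38), Hes5 (1.48), Ch25h (0.95), Zfp36l1 (0.35), Olig2 (0.29), Ier2 (0.51) and Sox7 (0.52), and smaller or more negative for Polr2m (-0.64), Ptov1 (-0.56) and Brat1 (-0.48). The 13 adjusted p-values lay between 2.57e-05 and 0.0446 (edgeR, interaction of treatment with replicate 4), and each rests on 1 control and 1 thapsigargin library of that number.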

How the results depend on the processing

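Of 101 genes described, 98 were called, and 95 kept their call and direction under all 16 alternatives. The exceptions were Cd68, Trem2 and COX2, given above. Most of the 101 were chosen by large changes or small p in these same libraries, so they do not stand for the calls at large. Stim1, not called, changed sign at 0.023 without replicate 4 (0.023 with the block added), 0.009 and 0.06 without control 3 and 4, and 0.015 without thapsigargin 1, and leaving out 1 library put it between -0.067 and 0.06. With the replicate block, lower genes numbered 4910, and pairing changed no call of a described gene but those of Orai1 and Atp2a2. Without replicate 4 in both groups, 4604 were higher and 3890 lower, and with the block added 4482 and 3673. Without the low-count filter, 37 genes fell at least 2-fold. Leaving out 1 library gave 2459 to 3699 higher, 1327 to 2757 lower, 146 to 231 at least 2-fold higher and 14 to 30 at least 2-fold lower genes. DESeq2 called 3176 higher and 2282 lower. Among 1280 list counts compared, 277 moved by over 1.5 times, 43 of them with the block and 40 without replicate 4. No more than 4 libraries a group and the sex of replicate 4 limit these values.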
